A study of Mus musculus with 6 samples.

Results

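Wipf3 and 7 related regulators of the actin cytoskeleton were examined in RNA from whole mouse testes, 8 of the 53700 genes counted. The members were taken by gene symbol: Wipf3, Arhgap31 and Myo10 were picked because their counts were higher in the knockout libraries, and the other 5, Wipf1, Wipf2, Was, Wasl and Cdc42, because they belong to the same pathway. The counts that picked the first 3 are the ones described below, so their group difference is given as a description with no test. All 8 members passed the filter on low counts.

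Actin filaments branch when a nucleation promoting factor switches on the Arp2/3 complex. WASP (gene Was), the form of blood cells, and N-WASP (gene Wasl), the widely expressed form, are such factors, and the small GTPase Cdc42 relieves their autoinhibition. The 3 WIP family proteins, encoded by Wipf1, Wipf2 and Wipf3, bind actin and hold WASP or N-WASP in a complex. In the seminiferous tubule, Sertoli cells build dense actin bundles called ectoplasmic specialisations at the blood-testis barrier and around spermatid heads, and Wipf3 is known from these cells and from brain. Arhgap31 is a GTPase-activating protein that turns off Cdc42 and Rac1, and Myo10 is an unconventional myosin that travels to the tips of filopodia.

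The study compared 3 mice of genotype MSL3 WT (WT) with 3 of genotype MSL3 cKO (cKO), in which a floxed Msl3 gene is conditionally deleted, all at postnatal day 45 and all with the strain label Msl3em1Forni/C57BL/6J. The recombinase and the cells in which it acts are not given in the sources used here. Its title states that loss of Msl3 does not affect spermatogenesis, and Msl3 encodes a subunit of a histone acetyltransferase complex. The labels call the samples biological replicates, with 3 mice a group, and the libraries are single-end reads of 75 bp.

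The libraries held 56991431 to 73766444 reads assigned to genes. Msl3 itself stood at 16.9 ± 1.68 CPM (SD, n = 3) in WT and 15.6 ± 0.649 CPM (SD, n = 3) in cKO. CPM is the read count scaled to a common library size. Its groups overlapped and its edgeR quasi-likelihood adjusted p was 0.551, so the count did not show the deletion. A whole-gene count in whole testis can miss a deletion of some exons or in some cells, and exon-level reads were not available here. The count therefore cannot check the labels, and groups are named by them. Markers of Sertoli, Leydig and peritubular myoid cells and of germ cells from spermatogonia to elongating spermatids all had reads, and the summed round spermatid list did not overlap between groups, at 2541 to 2816 CPM in WT and 2412 to 2482 CPM in cKO (exact two-sided permutation p = 0.1, the smallest that 3 against 3 can give). Of the 11 marker lists summed, this was the only one without overlap, and no correction was made for their number. In bulk tissue, fewer cells of a type and less RNA per cell cannot be told apart.

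RefSeq (GRCm38.p6) lists promoters for 7 of the 8 members, all but Arhgap31. Those of Wipf3 and Myo10 are shown because the counts of these genes stood higher in cKO together. Each sequence is the 250 bases before the RefSeq start, 5′ to 3′ on the plus strand, at chr6:54429436-54429685 for Wipf3 and chr15:25622300-25622549 for the upstream start of Myo10. Capitals mark the GC box GGGCGG or its reverse complement CCGCCC, the letters bound by Sp1-type factors.
Wipf3: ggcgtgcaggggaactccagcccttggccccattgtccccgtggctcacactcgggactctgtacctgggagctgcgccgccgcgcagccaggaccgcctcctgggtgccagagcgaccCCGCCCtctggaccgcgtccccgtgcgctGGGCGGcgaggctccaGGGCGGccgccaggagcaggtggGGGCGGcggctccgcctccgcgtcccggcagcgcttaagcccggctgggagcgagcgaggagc
Myo10: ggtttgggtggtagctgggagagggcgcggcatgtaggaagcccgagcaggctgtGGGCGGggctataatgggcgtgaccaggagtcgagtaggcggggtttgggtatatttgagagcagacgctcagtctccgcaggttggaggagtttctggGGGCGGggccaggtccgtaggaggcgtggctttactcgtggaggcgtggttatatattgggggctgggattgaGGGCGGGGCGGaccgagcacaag

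Both stretches hold 4 GC boxes, and in Myo10 the last pair shares letters. In the full window of 300 bases, which adds 50 bases after the start, Wipf3 has 4 and Myo10 has 5. Of 32851 such windows in the table, 35.7% hold at least 1 GC box and 5.49% hold at least 4. The 2 windows have 33 and 23 CpG dinucleotides, against a median of 7 over all windows. The other motifs searched on both strands were the cAMP response element TGACGTCA, the MYB motif TAACNG and the TATA box TATAAA, which occur in 1.79%, 23.3% and 13.6% of windows, and none of them is in either window. The downstream start listed for Myo10 has 6 CpG, 1 TATA box and no GC box, and gene counts do not tell which start was used. High CpG was not particular to these 2 genes. The first listed windows of Wipf1, Wasl, Wipf2, Cdc42 and Was have 37, 36, 26, 22 and 5 CpG. Those of Wasl and Cdc42 hold 2 GC boxes each, those of Wipf1 and Wipf2 hold 1 each, and that of Was holds none. The Cdc42 window also holds 1 cAMP response element, 1 MYB motif and 1 TATA box. A further listed window of Wipf1 holds 2 MYB motifs. Any link between these motifs and the group difference was not tested.

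Wipf3 lies on chromosome 6 at 54429603 to 54503768 on the plus strand (mm10, GENCODE M21), with 10 merged exons of 7114 bp in total. Its level was 44.8, 43.2 and 41.1 CPM in WT 1, 2 and 3 and 54.1, 57.7 and 65.7 CPM in cKO 1, 2 and 3. Every cKO library was above every WT library, with cKO 3 the highest and cKO 1 the nearest to the controls. The means were 43.0 ± 1.90 CPM (SD, n = 3) and 59.2 ± 5.96 CPM (SD, n = 3). That is 37.4% more in cKO, or 0.46 on the log2 scale with a standard error of 0.081. On the opposite strand, 2 genes share exon sequence with Wipf3, Scrn1 over 242 bp and 9130019P16Rik over 258 bp, and counting by strand kept their reads apart. None of the 75-base stretches of Wipf3 transcripts occurred in transcripts of another locus.

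The other WIP genes differed from Wipf3 and from each other in level. Wipf2, the broadly expressed member on chromosome 11, had 19.7, 17.8 and 17.7 CPM in WT and 19.8, 22.4 and 21.8 CPM in cKO. The lowest cKO library, cKO 1, was only just above the highest WT library, WT 1. The log2 fold change of Wipf2 was 0.21 with a 95% interval of 0.03 to 0.39, and the edgeR adjusted p over all tested genes was 0.310. After correction for GC content and transcript length the log2 fold change was 0.08. Wipf1, the founding member and abundant in blood cells, had 2.74, 2.48 and 2.46 CPM in WT and 2.23, 2.50 and 3.00 CPM in cKO. Its libraries were mixed, with cKO 1 the lowest and cKO 3 the highest of all. The log2 fold change of Wipf1 was 0.0062 with a 95% interval of -0.30 to 0.31 and an edgeR adjusted p of 0.990, an interval with room for a change in either direction.

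Per kilobase of merged exons, Wipf3 made up 68.5% ± 0.697 (SD, n = 3) of the summed WIP family level in WT and 72.4% ± 1.27 (SD, n = 3) in cKO. Wipf2 accounted for 26.6% ± 0.593 (SD, n = 3) and 23.8% ± 1.45 (SD, n = 3), and Wipf1 for the remainder. Wipf3 was thus the leading WIP transcript of the testis in every library. The ratio of Wipf3 to Wipf2 reads was 2.28, 2.42 and 2.32 in WT and 2.73, 2.58 and 3.01 in cKO, which did not overlap. Wipf3 was picked for its higher cKO counts, so nothing is read from the group difference in its share or in this ratio.

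**Figure D1:**
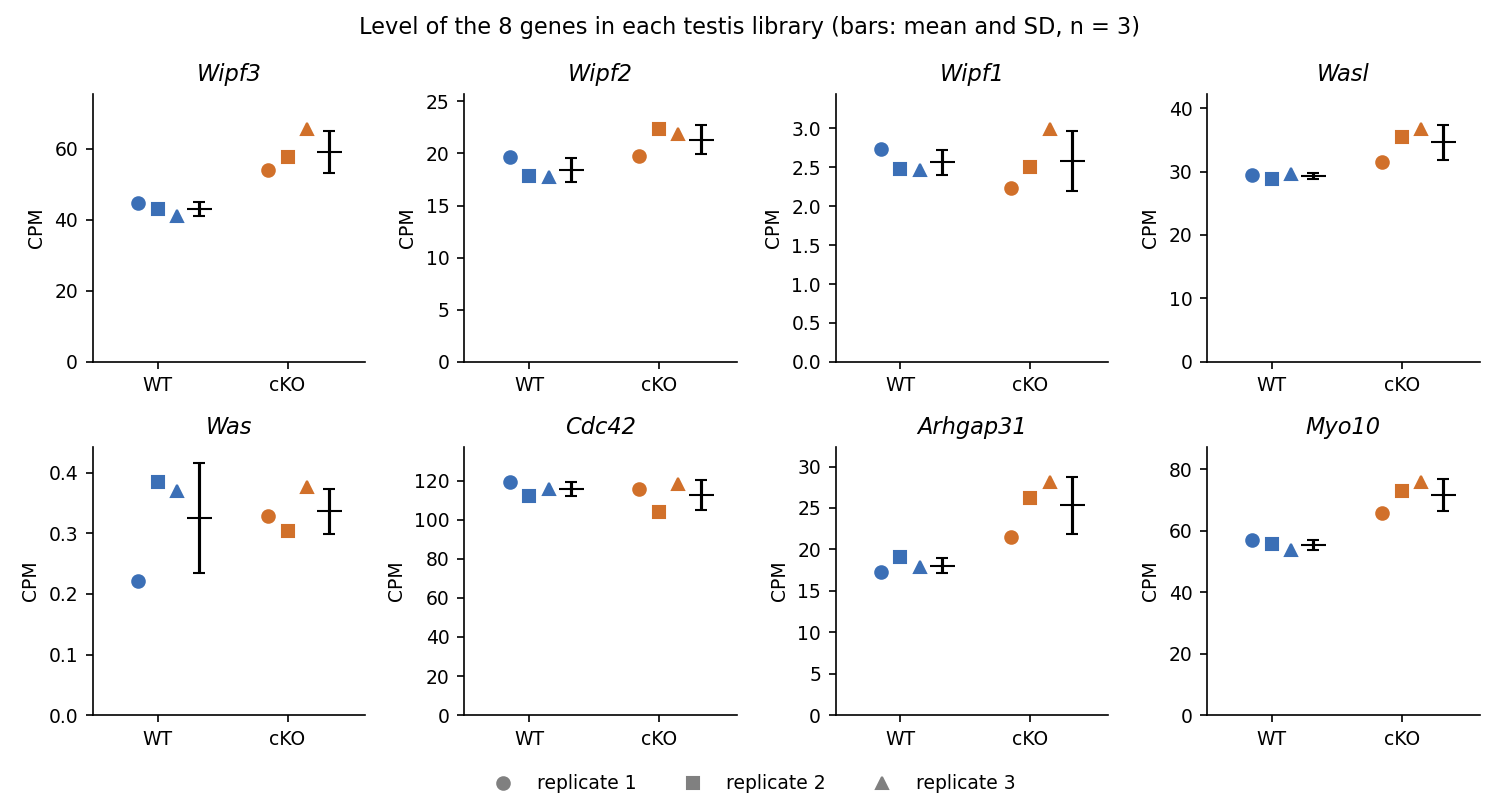
Level of each of the 8 genes in CPM (vertical axis, starting at 0) in the 3 WT and 3 cKO libraries, with a marker shape for each replicate number and bars for the mean and SD. The cKO points lie above all WT points for Wipf3, Wipf2, Wasl, Arhgap31 and Myo10, and the groups overlap for Wipf1, Was and Cdc42.

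The nucleation promoting factors were represented almost wholly by Wasl. Wasl, on chromosome 6 some distance from Wipf3, had 29.4, 28.8 and 29.6 CPM in WT and 31.5, 35.4 and 36.8 CPM in cKO. The WT libraries were tightly grouped, and all cKO libraries lay above them, cKO 1 again the nearest. Its log2 fold change was 0.24 (95% interval 0.07 to 0.40), and the edgeR adjusted p was 0.288. Without cKO replicate 1 the log2 fold change of Wasl was 0.30 and the edgeR adjusted p 0.0469, the single alternative in which it passed.

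Was, the blood cell form on the X chromosome, had 13, 25 and 23 reads in WT and 24, 17 and 22 in cKO. Those counts come to 0.325 ± 0.0907 CPM (SD, n = 3) and 0.336 ± 0.0370 CPM (SD, n = 3), with overlap. The log2 fold change was 0.04 with a 95% interval of -0.59 to 0.66 (edgeR adjusted p 0.964), an interval with room for a change in either direction. Beside it, the 10 general leukocyte markers summed to 18.2 ± 3.05 CPM (SD, n = 3) in WT and 16.8 ± 2.66 CPM (SD, n = 3) in cKO, with overlap and none of them at 0 reads. Per kilobase, Was contributed 2.79% ± 0.775 (SD, n = 3) of the summed Wasl and Was level in WT and 2.46% ± 0.252 (SD, n = 3) in cKO.

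Cdc42, which activates both factors, was the most abundant member. It had 119, 112 and 115 CPM in WT and 116, 104 and 118 CPM in cKO, with overlapping groups and cKO 2 the lowest. The log2 fold change was -0.04 (95% interval -0.19 to 0.12), with an edgeR adjusted p of 0.851. In percent of the WT level that interval runs from -12.5% to 8.31%.

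Arhgap31, the GTPase-activating protein for Cdc42, lies on chromosome 16 at 38598340 to 38713274 on the minus strand. It had 17.3, 19.0 and 17.8 CPM in WT and 21.5, 26.2 and 28.2 CPM in cKO. All cKO libraries were above the controls, cKO 1 by the smallest margin. The means of 18.0 ± 0.902 CPM (SD, n = 3) and 25.3 ± 3.40 CPM (SD, n = 3) differ by 0.49 on the log2 scale (SE 0.099), above the 0.46 of Wipf3. Wipf3 had the larger value with the GC and length correction (0.37 against 0.32), without WT 1 (0.49 against 0.46) and without cKO 2 (0.48 against 0.46). Relative to its substrate, Arhgap31 reads per Cdc42 read were 0.145, 0.170 and 0.154 in WT and 0.186, 0.252 and 0.238 in cKO, without overlap. Arhgap31 was picked for its higher cKO counts, so nothing is read from that separation.

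Myo10, the filopodial motor, lies on chromosome 15 at 25622525 to 25813673 on the plus strand, with 46 merged exons. It had 57.0, 55.6 and 53.8 CPM in WT and 65.8, 72.9 and 75.9 CPM in cKO. The same order of the cKO libraries appeared as in Wipf3, Arhgap31 and Wasl, with cKO 1 lowest and cKO 3 highest. The means were 55.5 ± 1.61 CPM (SD, n = 3) and 71.5 ± 5.18 CPM (SD, n = 3). On the log2 scale they differ by 0.37 (SE 0.072).

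Of the 8 members, 0 passed an edgeR adjusted p of 0.05, against 0.0183% of the 21902 genes tested (4 genes). At an unadjusted edgeR p under 0.05 there were 5 members, all higher in cKO, where 7.33% of all genes were higher at that level. These 5 are the picked genes plus Wipf2 and Wasl. The groups did not overlap in the same 5, against 18.9% of all genes without overlap in either direction, and 2201 of the 21902 higher. As 3 of the 5 were picked on this contrast, only Wipf2 and Wasl, of the 5 partners, were not picked for their rise. The partners too were chosen with earlier results of these data known, so nothing is read from these counts. DESeq2, used as an alternative, called 3 of the 6 members with a defined adjusted p, the picked ones, where it called 1.64% of all genes with a defined value. Nothing is read from that count, since the same counts picked those genes. Leaving out cKO 1 moved the number of all genes past the edgeR threshold from 4 to 628 and that of the members from 0 to 4, the picked genes and Wasl, and leaving out WT 1 moved them to 116 and 1. These fits called 2.82% and 0.518% of all genes tested in them.

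**Figure D2:**
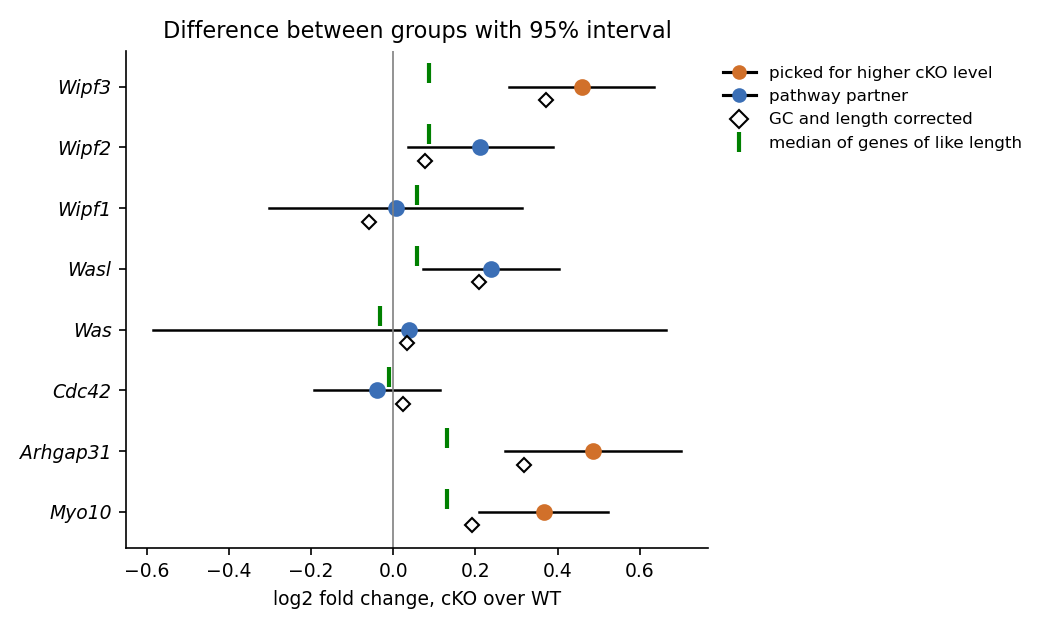
Log2 fold change of cKO over WT (horizontal axis) for each gene, with filled circles for the estimate and lines for its 95% interval. Open diamonds give the value after correction for GC content and transcript length and green ticks the median of all genes in the same length bin. The corrected values of Myo10 and Arhgap31 are 0.19 and 0.32, against 0.37 and 0.49 before correction.

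Per kilobase of merged exons, the levels in WT ran from Cdc42 at 39.0 ± 1.23 CPM per kb (SD, n = 3) through Wipf3 at 6.05 ± 0.267 (SD, n = 3), Myo10 at 5.48 ± 0.159 (SD, n = 3) and Wasl at 4.75 ± 0.0652 (SD, n = 3). Below these came Wipf2 at 2.35 ± 0.143 CPM per kb (SD, n = 3), Arhgap31 at 1.62 ± 0.0810 (SD, n = 3), Wipf1 at 0.434 ± 0.0263 (SD, n = 3) and Was at 0.137 ± 0.0381 (SD, n = 3). The order was the same in cKO, and within each group no neighbours in it overlapped. Dividing by the longest transcript in place of merged exons gave the same order.

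The length of a gene moved with the group difference across the transcriptome. When the tested genes were split into 10 bins of nearly equal number by merged exon length, the median log2 fold change went from -0.16 in the shortest bin, of 53 to 796 bp, to 0.13 in the longest, of 8684 bp and more. It was higher at each step in between, and 23.7% of the shortest and 81.5% of the longest genes had a log2 fold change above 0. Arhgap31 (11141 bp) and Myo10 (10122 bp) are in the longest bin, and Wipf3 (7114 bp) and Wipf2 (7819 bp) in the ninth, whose median was 0.09. Wasl and Wipf1 are in the eighth, with a median of 0.06, Cdc42 in the fifth and Was in the fourth. A correction of each library for GC content and transcript length, chosen after the data had been seen, gave log2 fold changes of 0.37 for Wipf3, 0.32 for Arhgap31, 0.19 for Myo10, 0.21 for Wasl and 0.08 for Wipf2. All 5 values stayed above 0 and all were below the uncorrected ones, with the largest drops in Myo10, Arhgap31 and Wipf2. The part of transcript length in the members' difference was not tested beyond these values.

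**Figure D3:**
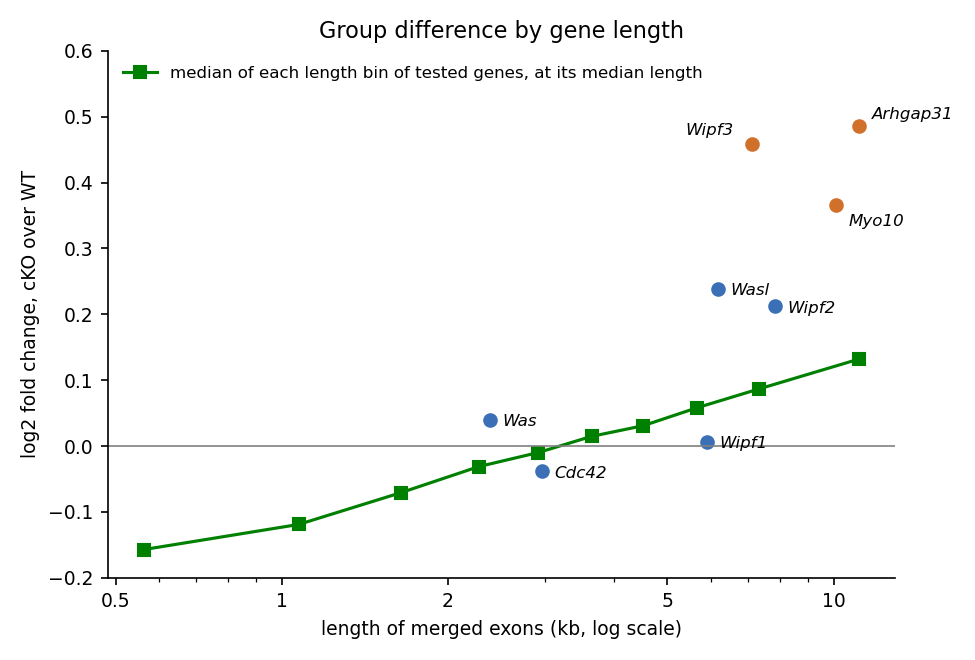
Log2 fold change of cKO over WT (vertical axis) against the length of merged exons in kb (log scale). Green squares are the medians of the length bins of tested genes, drawn at each bin's median length, and circles are the 8 members. Wipf3, Arhgap31 and Myo10 lie at 0.46, 0.49 and 0.37, and the medians of their bins at 0.09 and 0.13. They were picked for this difference, so nothing is read from the gap.

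The length trend was not equal among the cKO libraries. Relative to each gene's mean over the 6 libraries, the longest bin of genes had median log2 deviations of -0.06, -0.06 and -0.07 in WT 1, 2 and 3, -0.05 in cKO 1, and 0.14 and 0.07 in cKO 2 and 3. Arhgap31 and Myo10, which are in that bin, deviated by 0.02 and 0.06 in cKO 1, against -0.16 and -0.14 in the nearest control. The ninth bin, which holds Wipf3 and Wipf2, had medians of -0.03, -0.06 and -0.04 in WT 1, 2 and 3, -0.0051 in cKO 1, and 0.07 and 0.04 in cKO 2 and 3. In cKO 1 Wipf3 deviated by 0.10, against -0.17 in the nearest control. The eighth bin, which holds Wasl, had medians of -0.0061, -0.04 and -0.02 in WT, 0.0070 in cKO 1, and 0.04 and 0.02 in cKO 2 and 3. Wasl itself was at -0.01 in cKO 1, against -0.10 in the nearest control. In each of these 3 bins the median of cKO 1 lay above all controls and below both other cKO libraries.

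**Figure D4:**
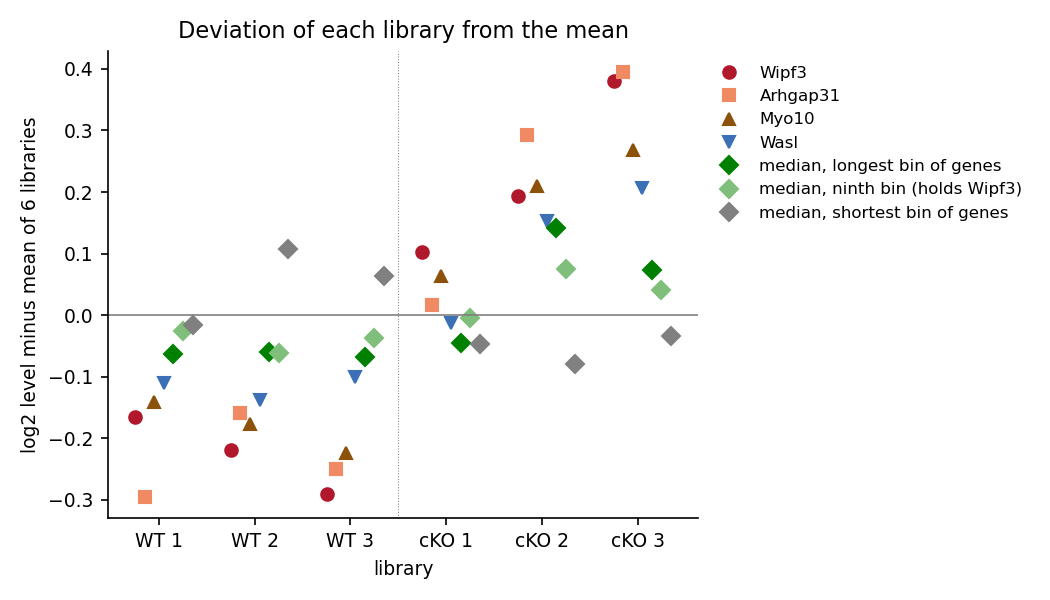
Log2 level minus the mean of the 6 libraries (vertical axis) in each library (horizontal axis), for 4 genes and for the medians of the longest, the ninth and the shortest of 10 length bins. The ninth bin, which holds Wipf3, is at -0.0051 in cKO 1, where Wipf3 is at 0.10.

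Cell type markers that could carry the members were read beside them. The Sertoli list of 14 genes summed to 1627 to 1934 CPM in WT and 1680 to 2103 CPM in cKO (exact two-sided permutation p = 0.4), with a log2 fold change above 0 in 13 of its 14 genes and no gene at 0 reads. As a percent of that sum, Wipf3 was 2.32%, 2.66% and 2.34% in WT and 2.57%, 3.43% and 3.29% in cKO. On this scale the groups overlapped, because cKO 1 was below WT 2. Arhgap31 and Myo10 also overlapped, and for Wipf2 and Wasl cKO 1 was below every WT library. The endothelial list of 11 genes summed to 41.9 to 45.4 CPM in WT and 45.1 to 52.6 CPM in cKO (exact two-sided permutation p = 0.2), with a log2 fold change above 0 in 9 of 11 and none at 0 reads. Of all tested genes, 50.7% had a log2 fold change above 0. Among tested spermatogonia markers it was above 0 in 8 of 10, and among macrophage markers in 2 of 10. The summed levels of both lists overlapped between groups. The part of any cell type in the members' difference was not tested.

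By Pearson correlation of log2 CPM over the 6 libraries, among 16829 genes whose mean reached 1 CPM, the genes most like Wipf3 were Nisch (r = 0.995), Auts2 (0.995), Adgrl1 (0.994), Hk2 (0.992) and Cpne8 (0.992). These are descriptions over 6 libraries that share the group difference and the length trend, and 3 of the 5 have merged exons of over 8 kb. Among the members, Myo10 had r = 0.989 and ranked 8th, Arhgap31 0.952 and 114th, Wasl 0.948 and 135th and Wipf2 0.899 and 399th. Wipf1 and Cdc42 had 0.363 and -0.158.

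The wider pathway was read in 10 lists with 167 genes, all of which passed the filter on low counts. The lists were chosen with earlier results of these data known, so nothing is read from their counts or medians here or below. By edgeR, 0 of the 167 passed an adjusted p of 0.05, and 12, all higher, did so without cKO 1, a fit in which 2.47% of all genes were called higher (549 of 628 calls). At an unadjusted edgeR p under 0.05, 34 were higher and 5 lower in cKO, against 7.33% and 6.54% of all genes. The median log2 fold change was 0.07, against 0.0031 over all tested genes, and 0.03 after the correction for GC content and length. The median merged exon length of the 167 genes was 4970 bp, against 3267 bp over all tested genes.

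The Arp2/3 complex, the machine that the WASP proteins switch on, had a median of -0.02, with 3 of 10 subunit genes above 0 and 0 at an unadjusted edgeR p under 0.05. Its most abundant subunits per kilobase were Arpc2, at 178 ± 7.67 CPM (SD, n = 3) in WT and 181 ± 11.8 (SD, n = 3) in cKO, and Arpc1a, at 113 ± 4.36 (SD, n = 3) and 111 ± 1.90 (SD, n = 3). The largest difference in this list was Arpc5l at -0.12 (edgeR adjusted p 0.427). Actins and testis actin-related genes had a median of -0.05, with 2 of 9 lower at an unadjusted edgeR p under 0.05, Actrt1 among them at -0.25 with overlapping groups (edgeR adjusted p 0.313). The spermatid gene Actl7b, the highest per kilobase, stood at 764 ± 44.5 CPM (SD, n = 3) in WT and 745 ± 91.6 (SD, n = 3) in cKO.

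Other nucleation promoters, chiefly the WAVE complex that acts under Rac1, had a median of 0.11, with 4 of 16 higher and 0 lower at an unadjusted edgeR p under 0.05. Wasf2, a WAVE protein, had 121 ± 3.76 CPM (SD, n = 3) in WT and 137 ± 2.89 (SD, n = 3) in cKO (edgeR adjusted p 0.304), and Wasf3 a log2 fold change of 0.27 (edgeR adjusted p 0.288). Adaptors and membrane-bending activators of WASP had a median of 0.08, with 2 of 19 higher at that level. Dnm2, a dynamin of membrane fission, was the most abundant of them, at 216 ± 11.0 CPM (SD, n = 3) in WT and 236 ± 11.3 (SD, n = 3) in cKO, with overlap. Effectors of Cdc42 had a median of 0.11 and 4 of 19 higher, with the kinase gene Cdc42bpa at 0.32 (edgeR adjusted p 0.277) and Cdc42ep3 at -0.09 (edgeR adjusted p 0.559).

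The regulators of Cdc42 and the myosins had the longest transcripts, with median merged exons of 8552 to 8792 bp. Exchange factors had a median of 0.09, with 6 of 19 higher at an unadjusted edgeR p under 0.05, and -0.02 after the correction. GTPase-activating proteins other than Arhgap31 had a median of 0.13, with 7 of 17 higher and 1 lower, and 0.04 after the correction. The lower one was Chn2, a Rac regulator encoded near Wipf3 on chromosome 6, at 433 ± 9.86 CPM (SD, n = 3) in WT and 377 ± 27.3 (SD, n = 3) in cKO (edgeR adjusted p 0.305). Arhgap32, a relative of Arhgap31, had 33.7 ± 1.99 CPM (SD, n = 3) in WT and 43.6 ± 5.06 (SD, n = 3) in cKO (edgeR adjusted p 0.277). Its log2 fold change of 0.37 was 0.15 after the correction. Unconventional myosins other than Myo10 had the highest median, 0.18, with 7 of 19 higher, and 0.04 after the correction. Myo7a had 140 ± 5.19 CPM (SD, n = 3) in WT and 171 ± 16.5 (SD, n = 3) in cKO (edgeR adjusted p 0.277), and Myo9a a log2 fold change of 0.34 with overlapping groups (edgeR adjusted p 0.369).

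Genes that bundle, cap or elongate filaments had a median of 0.0086, with 4 of 25 higher and 1 lower at an unadjusted edgeR p under 0.05. Eps8, which caps and bundles actin and is known from ectoplasmic specialisations, had 20.9 ± 2.91 CPM (SD, n = 3) in WT and 28.4 ± 3.09 (SD, n = 3) in cKO (edgeR adjusted p 0.277). Its log2 fold change of 0.45 was 0.40 after the correction. Capza3, the capping protein subunit of spermatids, was the lower one, at 264 ± 45.1 CPM (SD, n = 3) in WT and 195 ± 8.24 (SD, n = 3) in cKO, which is -0.44 on the log2 scale (edgeR adjusted p 0.277). Fscn3, the testis fascin, had -0.08 (edgeR adjusted p 0.696). DESeq2 called 4 of the 167 genes higher, Arhgap32, Srgap3, Myo7a and Eps8, and 1 lower, Capza3. Of all 12135 genes with a defined value it called 0.733% higher and 0.906% lower. Some of the 167, Pacsin3 and Dock11 among them, had no defined value, so the bases of these shares differ.

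**Figure D5:**
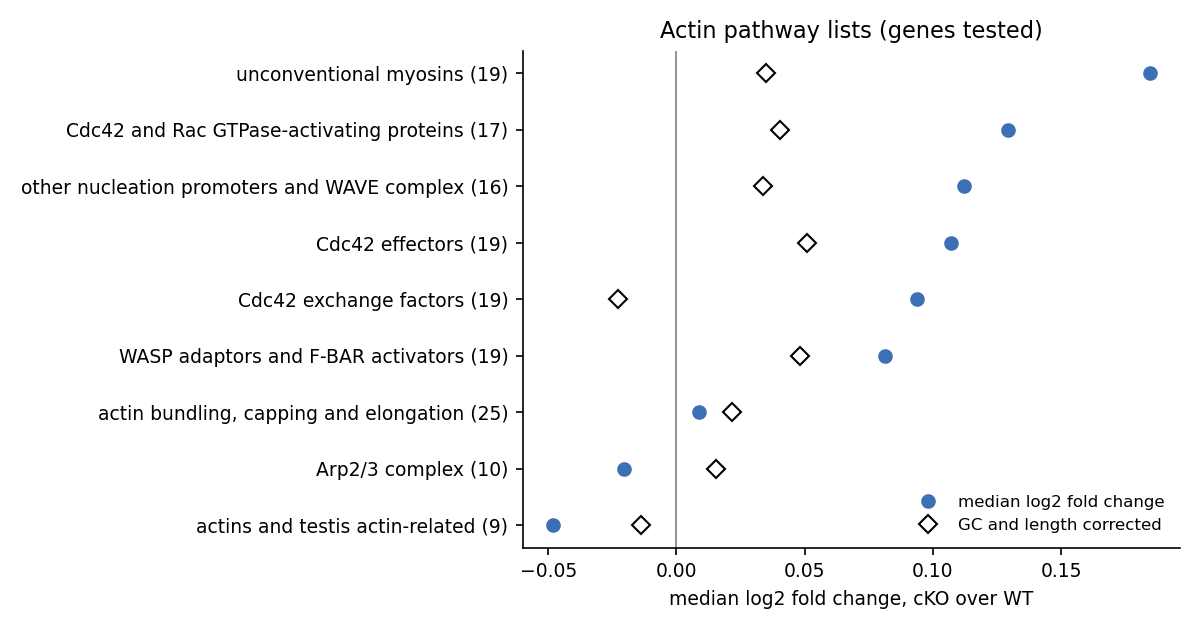
Median log2 fold change of cKO over WT (horizontal axis) of each pathway list described, with the number of genes in brackets, before (circles) and after (diamonds) correction for GC content and transcript length. Before correction the medians run from -0.05 to 0.18, and the unconventional myosins go from 0.18 to 0.04.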

How the data were processed

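Whole testis RNA of 3 WT and 3 cKO mice was sequenced as single-end reads of 75 bp, per the labels' protocols. STAR, HTSeq and DESeq2 and the build mm10 are named in the submitters' processing notes without versions, and the annotation release is not given in the sources used here. The deposited values are raw read counts per gene without normalisation, in the 3-column layout of STAR. The opposite-strand counts, 96.0% to 96.2% of stranded reads, were used. Lines for reads outside single genes, 14.8% to 16.7% of reads, were left out. GENCODE M21 (GRCm38) matched 52147 of 53700 identifiers.

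Differences were tested with edgeR 4.0.16 in R 4.3.3 (quasi-likelihood test after TMM scaling, low counts removed by filterByExpr at 10, Benjamini-Hochberg over 21902 genes), with standard errors from the F statistic. CPM use the scaled library sizes. The procedure was tested on simulated counts. Of genes changed by 1 on the log2 scale it recovered 86%, with 15 of 187 calls false. Of genes changed by 0.5 it recovered 48%, with 11 of 107 calls false. The simulated counts held no length trend and no deviation shared by many genes of a library. These shares therefore need not hold for the real libraries. Members and lists were chosen with earlier results of these data known. Besides the members and Msl3, genes were named by rule: the 2 highest per kilobase and the largest absolute difference at 1 CPM or more in each list, and the 5 most like Wipf3. Alternatives were RLE scaling, library totals, no or a stricter filter, unstranded counts, a replicate block, robust fitting, each library left out, DESeq2 1.42.0, a threshold of 0.1 and a loess correction for GC content and length (span 0.3), which was chosen after seeing the data. Counts of any pair of libraries differed by more than sampling noise. By chi-square per degree of freedom, which is smaller for more alike libraries, the most alike pair crossed the groups. It was WT 1 and cKO 1, which share a replicate number, at 5.25, followed by WT 1 and WT 3, at 8.69. Against cKO 2 and cKO 3, cKO 1 stood at 39.9 and 20.1. The values of 1 pathway list are not reported here by name.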

Additional observations from a re-analysis of the deposited data

How the results depend on the processing

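The number of genes past the edgeR threshold was 4 and moved to 757 without the filter on low counts, 2 with unstranded counts and 199 with DESeq2, and ran from 1 to 628 when each library was left out (628 without cKO replicate 1, 116 without WT replicate 1). For the pathway lists it was 0, against 5 with DESeq2 and 0 to 12 with a library left out, the 12, all higher, without cKO replicate 1. Deviations of same-numbered libraries had correlations of 0.396, 0.264 and -0.0929, against -0.423 to 0.224 for pairs of unlike number. Libraries numbered 1 and 2 correlated best with their own number, and those numbered 3 did not. The main fit did not take the numbers as pairs, and a batch shared by a number was not tested. The fit with a replicate block gave 49 of the 21902 genes tested, 2 of the 8 members among them. These 2 were Wipf3 and Arhgap31, both picked for their rise, so nothing is read from that count. The log2 fold changes of Wipf3, Arhgap31, Myo10, Wasl and Wipf2 stayed above 0 in all 15 alternatives. With the GC and length correction Arhgap31 was 0.32, Myo10 0.19 and Wipf2 0.08, against 0.49, 0.37 and 0.21. Wasl ran from 0.19 to 0.30 with a library left out. Wipf1, near 0, turned to -0.020 with library totals, -0.0043 without the filter, -0.0028 with the stricter filter, -0.026 with unstranded counts and -0.060 with the correction, and ran from -0.11 to 0.10 with a library left out. Was ran from -0.17 to 0.18 and Cdc42 from -0.074 to 0.018 in those fits, and Cdc42 was 0.025 with the correction. The summed spermatocyte list went from 0.012 to -0.016 with library totals. For all of these, the cause was not tested. With about 20 reads a library, Was limits what can be seen.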

Other observations

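The tested genes within 3 places of each picked gene were read as values, a choice made after the data had been seen. Around Wipf3, Scrn1, which overlaps its end on the opposite strand and encodes secernin, had 16.6 CPM in WT and 20.1 CPM in cKO, a log2 fold change of 0.27 without overlap (edgeR adjusted p 0.278). Plekha8, at 0.10, was also higher without overlap, and Chn2, at -0.20, lower without overlap. Prr15 and Fkbp14 had 0.08 each and 9130019P16Rik -0.36, with overlap. Around Arhgap31 the low-count gene Upk1b, at 0.230 CPM in WT and 0.442 CPM in cKO, had 0.91 without overlap, with the other 5 from -0.14 to 0.0034. Around Myo10 the 6 genes ran from -0.46 to 0.21, all with overlapping groups. Over all tested genes, 18.9% had groups that did not overlap in either direction, and an effect of position was not tested.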
